A study of Mus musculus with 8 samples.

Results

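The genes described here are 10 of the MHC class I antigen presentation pathway, followed by name through all 8 pancreas libraries of a mouse study of the chromatin protein Daxx. They are H2-K1, H2-D1, B2m, Tap1, Tap2, Psmb8, Psmb9, Psmb10, Erap1 and Nlrc5, and all 10 are among the 11789 genes of the deposited table. The rule that picks them is a list of gene names, drawn up with earlier results of these data known. Whole pancreas was taken at 6 weeks of age from 4 wild-type mice and from 4 mice with the genotype Daxxfl/flPdx1-CreTg, called Daxx deleted below. In these the Pdx1 promoter drives Cre. Within the pancreas it directs recombination of the floxed Daxx alleles to the epithelium, the acinar, duct and islet cells. Vessels, stroma and immune cells of the same organ are outside that lineage. Each genotype had 2 females and 2 males, without a sex for each library. P-values measure the spread between these mice. No group carries the transgene or the floxed alleles alone, so Daxx loss, Cre and the floxed alleles cannot be told apart.

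Class I molecules carry short peptides from proteins made inside a cell to its surface, where CD8 T cells and NK cells read them. Proteasomes cut proteins into peptides, the Tap1 and Tap2 transporter moves these into the endoplasmic reticulum, Erap1 trims them, and a heavy chain such as H2-K1 or H2-D1 binds them together with the light chain B2m. Interferons raise most of these genes, replace proteasome subunits by the inducible ones Psmb8, Psmb9 and Psmb10, and induce Nlrc5, the coactivator of class I promoters. In the resting exocrine pancreas class I is known to be low on acinar cells and higher on vessels and immune cells.

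The letters before the start of 3 of these genes show the control elements that classical class I genes have in common, and they are printed because heavy and light chain share them. Class I promoters are known for a module in which an X2 element and an inverted CCAAT, the Y box, are bound by a complex that recruits Nlrc5. In the 250 bases before the RefSeq start (GRCm38.p6), the X2 core TGACG was followed by ATTGG on the same strand after exactly 20 bases in H2-K1, H2-D1 and B2m. The stretches from the X2 core to the Y box lie at chr17:34000359-34000388 (minus strand) for H2-K1, chr17:35262993-35263022 (plus strand) for H2-D1 and chr2:122147609-122147638 (plus strand) for B2m. They are given 5′ to 3′ with both cores in capitals.
H2-K1: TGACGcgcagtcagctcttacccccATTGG
H2-D1: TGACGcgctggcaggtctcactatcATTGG
B2m: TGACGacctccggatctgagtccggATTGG
The same order with a gap of 15 to 25 bases, on either strand, was found in 109 of 27025 promoters of this length, or 0.403%. The H2-D1 stretch is also inside an untranslated first exon of a longer GENCODE transcript, so only 30 of its bases are shown.

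Farther from the start, H2-K1 and B2m carried the core that interferon regulatory factors read, and H2-K1 also carried enhancer A, an NF-kB element. The longer stretches are chr17:34000354-34000468 (minus strand) for H2-K1 and chr2:122147540-122147643 (plus strand) for B2m. In capitals, from left to right, stand enhancer A (10 bases, H2-K1 only), the interferon regulatory factor core AANNGAAA on either strand, TGACG and ATTGG.
H2-K1: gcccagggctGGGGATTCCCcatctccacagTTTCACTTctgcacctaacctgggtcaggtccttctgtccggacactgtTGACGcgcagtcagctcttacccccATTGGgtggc
B2m: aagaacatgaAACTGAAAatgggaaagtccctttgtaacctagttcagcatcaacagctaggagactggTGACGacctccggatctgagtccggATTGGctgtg
Searched on both strands, the 10 letters of enhancer A were present in 0.0814% of promoters, AANNGAAA in 21.6%, TGACG in 17.9% and CCAAT in 34.5%. H2-D1 held the same 4 motifs in the same order, and the promoters of H2-K1 and H2-D1 were identical at 167 of 190 aligned bases (87.9%). RefSeq windows were matched for 8 of the 10 genes, without Tap2 and Nlrc5. Tap1 and Psmb9 are transcribed away from each other and share 225 bases of their windows, which held TGACG and CCAAT but not in this order and spacing. The windows of Psmb8, Psmb10 and Erap1 held none of the 4 motifs. Like that of H2-D1, the windows of Psmb8, Psmb9 and Erap1 lie within the GENCODE gene, which starts farther upstream. That of Psmb10 lies within it in part. The bases before these GENCODE starts were not or only partly searched, so the absence of a motif holds for the windows alone. A match is a string of letters and not evidence of binding.

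**Figure D1:**
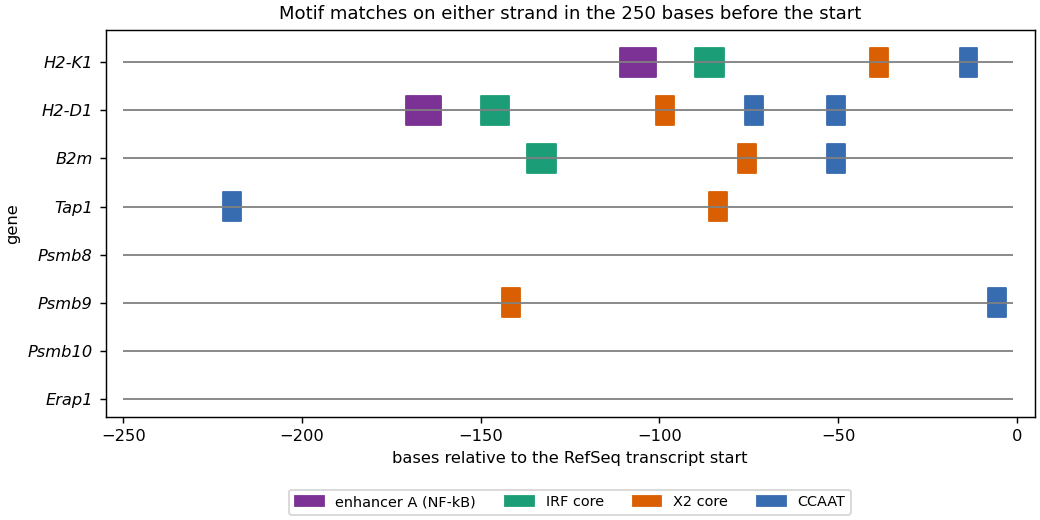
Motif matches in the 250 bases before the RefSeq start of the 8 members with a window, with distance from the start in bases on the x axis and 1 gene per line. Bars mark matches on either strand. H2-K1 and H2-D1 carry the same 4 motifs in the same order, and the X2 core and the next CCAAT are 20 bases apart in H2-K1, H2-D1 and B2m.

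The 8 libraries held 7705789 to 10517508 reads over the listed genes. Values are deposited normalized read counts, that is reads divided by a size factor per library, and groups are given as mean ± SD with n = 4. Daxx itself (chromosome 17, 33909414 to 33915590) had 39.7, 58.7, 46.7 and 45.2 normalized counts in the wild-type libraries, in replicate order, against 26.8, 23.3, 29.2 and 32.5 in the Daxx-deleted ones. Every library matched its label in direction. Acinar markers dominated all libraries, with 2812320 to 4136890 normalized counts summed over 9 genes. Replicate numbers follow accession order and pair no animals.

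Levels per kilobase of merged GENCODE exons, as mean ± SD over all 8 libraries, were 402.5 ± 61.6 for Psmb10, 167.3 ± 27.2 for H2-D1, 145.9 ± 22.1 for H2-K1 and 142.5 ± 49.7 for B2m. They were 15.8 ± 2.89 for Tap2, 9.69 ± 2.09 for Erap1, 5.397 ± 2.11 for Tap1 and 3.25 ± 2.03 for Psmb8. Psmb9 (1.45 ± 0.780) and Nlrc5 (1.40 ± 0.370) were lowest. Between H2-D1, H2-K1 and B2m the ranges over libraries overlapped, as they did between each neighbouring pair from Tap2 down to Nlrc5. Psmb10 (343.5 to 532.4) lay above every other member in every library, and B2m (81.6 to 232.5) lay above Tap2 (12.4 to 21.8) in every library. The length of a gene with several transcripts is uncertain, so close neighbours in this order have no firm rank.

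Across the genotypes none of the 9 members that entered the test was called at an adjusted p under 0.05 by limma, and 0.0% of all 10468 tested genes were called. Over all genes limma found 302 at an unadjusted p under 0.05, edgeR called 0 genes and DESeq2 called 1, which is no member. In 7 of the 9 the mean log2 level was higher in Daxx-deleted pancreas and in 2 it was lower. The median log2 fold change was 0.19 against -0.01 over all tested genes, of which 48.1% lay above 0. The limma adjusted p was 0.9997 for each of the 9. Daxx itself, at 58.8% of its wild-type mean, had an unadjusted limma p of 0.00238 and an adjusted p of 0.9997. The test thus did not call even the targeted gene, and a gene that was not called is not shown to be unchanged. At an unadjusted p under 0.05 there were 0 members, against 2.88% of all tested genes (1.32% in the direction higher in Daxx-deleted pancreas). The genotypes overlapped in all 9, where they did not overlap for 1.87% of tested genes, with 0.831% higher in all Daxx-deleted libraries and 1.04% lower. Psmb9, with a mean under 10, stayed below the filter and was tested alone. Psmb8, counted among the 7, had a wild-type mean of 9.25 and passed the filter only through its Daxx-deleted mean of 12.7. Its direction is therefore no support for a difference. In this bulk tissue a change in the number of expressing cells and a change in RNA per cell cannot be told apart.

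**Figure D2:**
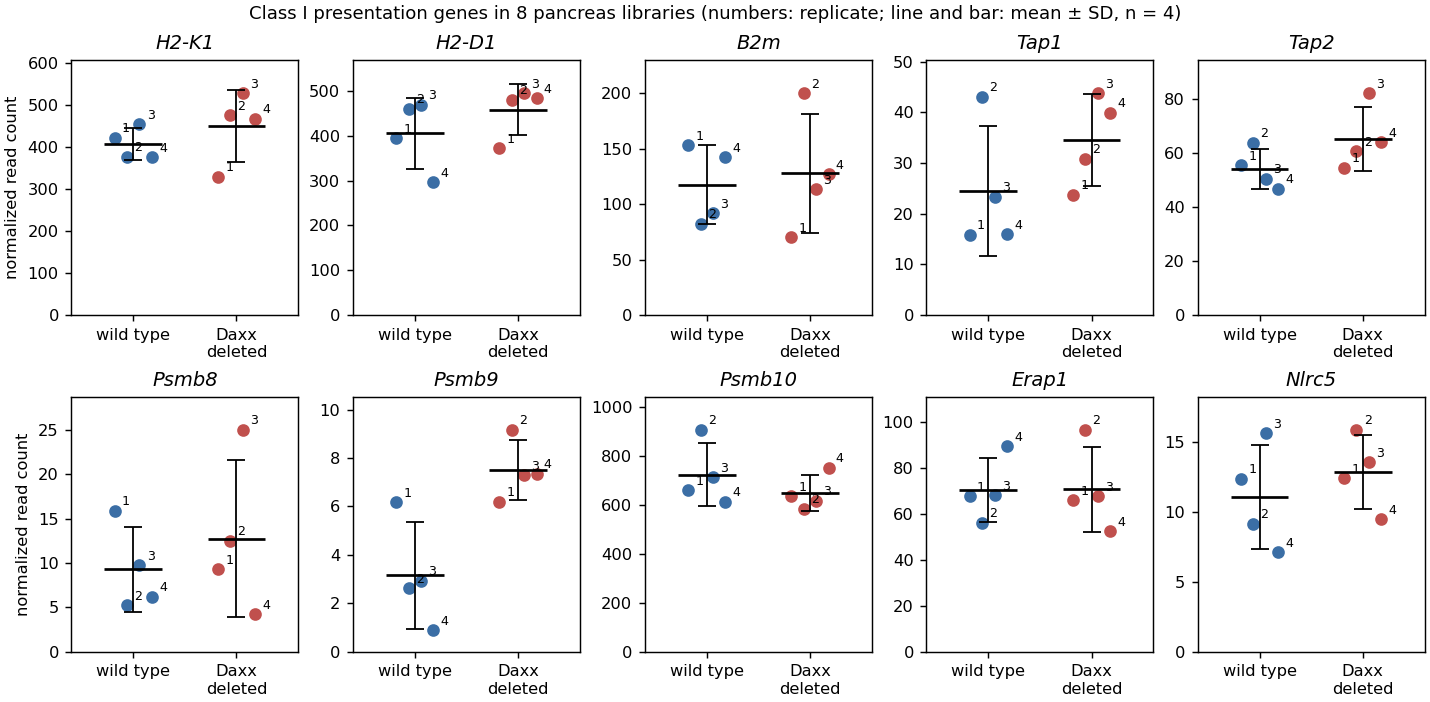
Normalized read count (y axis, from 0) of each of the 10 members in the 4 wild-type and 4 Daxx-deleted libraries (x axis), with the replicate number at each point and the mean ± SD as line and bar. The genotypes overlap in every panel except Psmb9, where 6.17 is the highest wild-type value and 6.19 the lowest Daxx-deleted value.

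The heavy chains H2-K1 and H2-D1, which present the peptide, had overlapping values in the genotypes, with Daxx-deleted replicate 1 apart from the other 3 of its group. H2-K1 (ENSMUSG00000061232.15, chromosome 17, 33996017 to 34000347, minus strand) had 422.1, 376.9, 454.8 and 376.3 normalized counts in wild-type replicates 1 to 4 and 329.3, 475.7, 528.01 and 467.2 in Daxx-deleted replicates 1 to 4. Daxx-deleted replicates 2, 3 and 4 therefore exceeded the highest wild-type value and replicate 1 was under the lowest. The means were 407.5 ± 38.1 and 450.04 ± 84.9, a log2 fold change of 0.13 ± 0.14 (SE) with a 95% interval of -0.18 to 0.43, or 0.885-fold to 1.35-fold. The exact two-sided permutation test over 70 relabellings gave p = 0.457. With single libraries left out the log2 fold change of H2-K1 lay between 0.04 (without Daxx-deleted replicate 3) and 0.27 (without Daxx-deleted replicate 1), and it was 0.25 with equal library totals, not called in any of these.

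H2-D1 (ENSMUSG00000073411.11, chromosome 17, 35262730 to 35267499, plus strand) had 393.9, 460.4, 469.4 and 296.6 in wild-type replicates 1 to 4 and 372.7, 480.7, 494.7 and 484.0 in Daxx-deleted replicates 1 to 4. Again Daxx-deleted replicates 2, 3 and 4 exceeded the highest wild-type value, while replicate 1 was under 3 of the 4. The means were 405.1 ± 79.8 and 458.0 ± 57.2, with a log2 fold change of 0.19 ± 0.15 (SE, 95% interval -0.13 to 0.51, exact permutation p = 0.343). Without wild-type replicate 4, the lowest library, the log2 fold change of H2-D1 was 0.05, and with equal library totals it was 0.31. The ratio of H2-K1 to H2-D1 counts was close to 1 in every library, from 0.819 to 1.27. It averaged 1.03 ± 0.189 among wild-type and 0.976 ± 0.0757 among Daxx-deleted mice (exact permutation p = 0.657).

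Reads of these polymorphic genes can be shared with relatives. Of the 50-base windows of H2-K1 transcripts 9.63% also occur in a transcript of another gene, most often H2-Q10, and 12.8% of those of H2-D1, most often H2-Q1. With 100-base windows the shares fell to 0.957% and 3.59%. For the read length, the treatment of reads with several matches and the strain of the mice, the sources used here give nothing.

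B2m, the light chain that every class I molecule needs, varied more between animals than between genotypes. B2m (ENSMUSG00000060802.8, chromosome 2, 122147686 to 122153083, plus strand) had 153.3, 82.2, 91.5 and 142.5 in wild-type replicates 1 to 4 and 70.2, 199.9, 113.5 and 127.04 in Daxx-deleted replicates 1 to 4. The lowest and the highest of all 8 values were both in Daxx-deleted libraries. The means were 117.4 ± 35.7 and 127.7 ± 53.9, with a log2 fold change of 0.07 ± 0.27 (SE, 95% interval -0.50 to 0.65, exact permutation p = 0.8286), which turned to -0.17 without Daxx-deleted replicate 2. B2m lies within Patl2, which is annotated on the other strand, and the sources used here do not say whether the counting used strand.

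The transporter genes Tap1 and Tap2, which load peptides into the endoplasmic reticulum, had higher means in Daxx-deleted pancreas without passing any test. Tap1 (ENSMUSG00000037321.17, chromosome 17, 34187553 to 34197225, plus strand) had 15.9, 43.04, 23.4 and 15.9 in wild-type replicates 1 to 4 and 23.7, 30.8, 43.7 and 39.9 in Daxx-deleted replicates 1 to 4. Wild-type replicate 2 reached the level of the highest Daxx-deleted library, and the other 3 wild-type libraries lay below every Daxx-deleted one. The means were 24.6 ± 12.8 and 34.6 ± 9.01. The log2 fold change of 0.56 ± 0.31 (SE) had a 95% interval of -0.11 to 1.23, which includes no change and a 2.34-fold increase (exact permutation p = 0.171). Without wild-type replicate 2 the log2 fold change of Tap1 was 0.86, with a limma adjusted p of 0.984. These values rest on 18 to 42 reads per library.

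Tap2 (ENSMUSG00000024339.12, chromosome 17, 34203527 to 34216321, plus strand) had 55.5, 63.9, 50.6 and 46.9 in wild-type replicates 1 to 4 and 54.7, 60.8, 82.3 and 64.04 in Daxx-deleted replicates 1 to 4. Daxx-deleted replicates 3 and 4 exceeded the highest wild-type value. The means were 54.2 ± 7.34 and 65.5 ± 11.9, with a log2 fold change of 0.26 ± 0.18 (SE, 95% interval -0.12 to 0.64, exact permutation p = 0.171). It was 0.15 without Daxx-deleted replicate 3. A listed noncoding gene on the other strand, Gm15821, lies within Tap2.

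The inducible proteasome subunits divided into a pair with few reads and 1 abundant gene. Psmb8 replaces Psmb5 in the immunoproteasome, Psmb9 replaces Psmb6, and Psmb10 replaces Psmb7. Psmb8 (ENSMUSG00000024338.14, chromosome 17, 34197721 to 34201454, plus strand) had 15.9, 5.22, 9.74 and 6.20 in wild-type replicates 1 to 4 and 9.29, 12.5, 24.99 and 4.1996 in Daxx-deleted replicates 1 to 4. The highest and the lowest value were both in Daxx-deleted libraries, on 4 to 24 reads. The log2 fold change was 0.30 ± 0.50 (SE), and its 95% interval of -0.77 to 1.37 is the widest of the 9 tested members (exact permutation p = 0.629). With single libraries left out it lay between 0.10 (without wild-type replicate 2) and 0.69 (without Daxx-deleted replicate 4).

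Psmb9 (ENSMUSG00000096727.2, chromosome 17, 34181987 to 34187764, minus strand) was the only member without overlap between genotypes. It had 6.17, 2.61, 2.92 and 0.885 normalized counts in wild-type replicates 1 to 4 and 6.19, 9.16, 7.29 and 7.35 in Daxx-deleted replicates 1 to 4, with means of 3.15 ± 2.20 and 7.499 ± 1.23. An exact permutation p of 0.0286, unadjusted, is the floor of this design. Of all 11789 listed genes 1.93% had no overlap and 0.925% were likewise higher in every Daxx-deleted library, and with no filter the limma adjusted p of Psmb9 was 0.9997. The counts behind these values were 7, 2, 3 and 1 reads in wild type and 6, 11, 7 and 7 in Daxx-deleted libraries, so the reads themselves overlapped (exact permutation p = 0.114 without scaling). All genes in the table reached 5 reads in 4 or more libraries. Among wild-type libraries Psmb9 did so only in replicate 1, so it is listed only because of its Daxx-deleted values. Such an entry favours genes higher in that group, so the separation and its p-value are no support for a difference. Psmb9 and Tap1 overlap by 212 bases on opposite strands.

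Psmb10 (ENSMUSG00000031897.9, chromosome 8, 105935735 to 105938444, minus strand) had 661.8, 907.8, 713.8 and 614.4 in wild-type replicates 1 to 4 and 636.9, 585.6, 617.6 and 752.8 in Daxx-deleted replicates 1 to 4. Wild-type replicate 2 was highest, and the other libraries of both genotypes overlapped. The means were 724.4 ± 128.8 and 648.2 ± 72.8, with a log2 fold change of -0.15 ± 0.13 (SE, 95% interval -0.43 to 0.13, exact permutation p = 0.400). The log2 fold change of Psmb10 was -0.037 without wild-type replicate 2 and -0.028 with equal library totals.

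Set against their constitutive counterparts within each library, the inducible subunits gave no difference past adjustment over the 4 ratios tested. The printed ratios do not depend on scaling between libraries. The tests used log2 ratios with 1 added to each normalized value, which do depend on it for low genes such as Psmb9. The ratio of Psmb8 to Psmb5 averaged 0.102 ± 0.0637 for wild-type and 0.130 ± 0.0764 for Daxx-deleted mice (exact permutation p = 0.629). The ratio of Psmb9 to Psmb6 was 0.0120 ± 0.00798 and 0.0280 ± 0.00467, with no overlap (exact permutation p = 0.0286, adjusted p = 0.114). That p-value is the floor of the test, so a ratio that separates on its own cannot pass adjustment over 4 ratios. The absence of a call is therefore set by the design and does not show equal ratios. The limit given above for how Psmb9 entered the table holds for this ratio as well. The ratio of Psmb10 to Psmb7 was 5.27 ± 1.55 and 4.62 ± 0.467 (exact permutation p = 0.629). The counterparts themselves were level between genotypes, with Psmb5 at 97.5 ± 17.7 and 96.7 ± 15.6, Psmb6 at 261.5 ± 11.8 and 268.2 ± 21.3, and Psmb7 at 140.4 ± 14.1 and 140.2 ± 5.29. Reads of Psmb10 thus outnumbered those of Psmb7 in every library, by 4.18 to 7.57 times, whereas Psmb8 and Psmb9 stayed below their counterparts in every library.

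**Figure D3:**
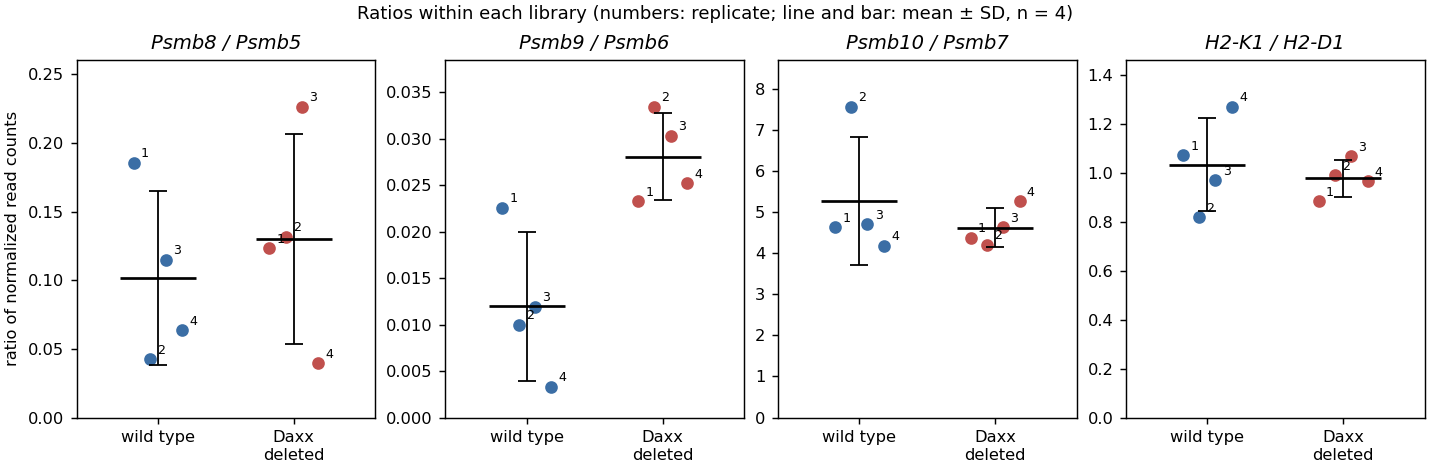
Ratio of normalized read counts within each library (y axis, from 0) for Psmb8 to Psmb5, Psmb9 to Psmb6, Psmb10 to Psmb7 and H2-K1 to H2-D1, by genotype (x axis), with replicate numbers and mean ± SD. Only the Psmb9 to Psmb6 ratio separates the genotypes, at an adjusted p of 0.114 from the exact permutation test. A ratio that separates on its own cannot pass adjustment in this design. Psmb10 exceeds Psmb7 by 4.18 to 7.57 times.

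The high level of Psmb10 came with a neighbour of extreme abundance. Ctrl, a chymotrypsin-like protease gene of acinar cells, starts 1872 bases downstream of the Psmb10 end on the same strand and had 165685 to 234946 normalized counts. Psmb10 counts were 0.316% to 0.392% of those of Ctrl in all 8 libraries, with means of 0.354 ± 0.0403% and 0.354 ± 0.0232% in wild-type and Daxx-deleted libraries. Across the 8 libraries their log2 levels had a Pearson r of 0.80 (exact permutation p = 0.0145) and a Spearman rho of 0.64 (exact permutation p = 0.0962). Without the 2 libraries farthest from the median of Ctrl r was 0.61, and with equal library totals it was 0.47 (exact permutation p = 0.245), so the relation depends on scaling. The pair was chosen after its values were seen, and whether transcripts of the Ctrl region enter the Psmb10 counts was not tested. Psmb10 was highest in wild-type replicate 2 and lowest in Daxx-deleted replicate 2. So was Cpa1, an acinar gene on chromosome 6, with 510651 and 334638 normalized counts. No correlation of Psmb10 with acinar genes on other chromosomes was computed, so the relation is not shown to be particular to Ctrl.

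Erap1, the aminopeptidase that trims peptides to the length class I binds, had the same mean in both genotypes. Erap1 (ENSMUSG00000021583.7, chromosome 13, 74639568 to 74693201, plus strand) had 67.9, 56.1, 68.2 and 89.4 in wild-type replicates 1 to 4 and 66.07, 96.6, 67.7 and 52.5 in Daxx-deleted replicates 1 to 4. The log2 fold change was -0.01 ± 0.20 (SE, 95% interval -0.44 to 0.42, exact permutation p = 0.943), with means of 70.4 ± 13.9 and 70.7 ± 18.6. Its last 834 bases overlap Cast on the other strand.

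Nlrc5, the coactivator that drives the class I module, was among the least abundant members. Nlrc5 (ENSMUSG00000074151.13, chromosome 8, 94434356 to 94527272, plus strand) had 12.3, 9.13, 15.6 and 7.08 in wild-type replicates 1 to 4 and 12.4, 15.8, 13.5 and 9.45 in Daxx-deleted replicates 1 to 4, on 7 to 19 reads. The log2 fold change was 0.23 ± 0.36 (SE), and its 95% interval from 0.694-fold to 1.98-fold includes no change (exact permutation p = 0.343). With single libraries left out it lay between 0.056 (without wild-type replicate 4) and 0.40 (without wild-type replicate 3).

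**Figure D4:**
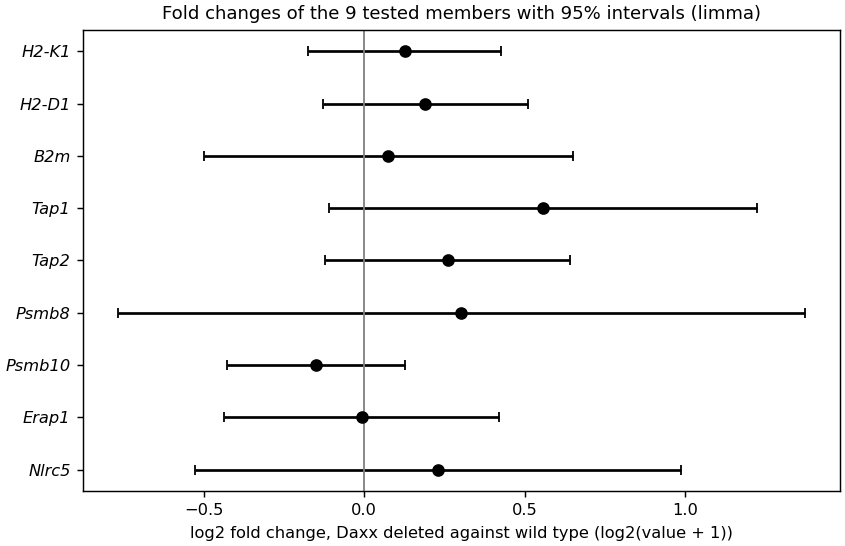
Log2 fold change of Daxx-deleted against wild-type pancreas (x axis) for the 9 tested members (y axis), with points for the limma estimate and bars for the 95% interval. All 9 intervals include 0, and those of Psmb8 (-0.77 to 1.37) and Nlrc5 (-0.53 to 0.99) are the widest.

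On chromosome 17 lie 6 of the members, all on the same side of Daxx. H2-K1 lies 80.4 kb after the end of Daxx, Psmb9, Tap1, Psmb8 and Tap2 lie 266.4 to 287.9 kb after it, and H2-D1 lies 1347 kb after it. These 6 had log2 fold changes above 0 (0.13 for H2-K1, 0.56 for Tap1, 0.30 for Psmb8, 0.26 for Tap2, 0.19 for H2-D1 and, for Psmb9 below the filter, 1.18). The 4 on other chromosomes had 0.07 (B2m), 0.23 (Nlrc5), -0.01 (Erap1) and -0.15 (Psmb10). Of all tested genes 48.1% lay above 0, and the share among other genes of chromosome 17 was not computed. Psmb9, Tap1, Psmb8 and Tap2 are close neighbours, and Psmb9, Tap1 and Psmb8 had few reads. Tapbp, which starts 308 bases after Daxx, also had a log2 fold change above 0 (0.38), as did H2-T23 (0.54) and H2-Q2 (0.35) on chromosome 17. All were named because their unadjusted p was among the smallest of their lists, and the other list genes of this chromosome were not counted. An effect of position was not tested. Beside the floxed allele, any other difference of the region between the mouse lines cannot be told apart from Daxx loss, and no value here separates them.

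Levels of the members were compared across animals. Over the 36 pairs of the 9 tested members Pearson r ran from -0.77 to 0.83 with a median of 0.22, and 0 pairs passed adjustment over the 36. Tap1 and Tap2 had r = 0.83 (exact permutation p = 0.00784, adjusted p = 0.282) and rho = 0.83 (exact permutation p = 0.0154), and without the 2 libraries farthest from the median of Tap1 r was 0.86. H2-D1 and Tap1 had r = 0.78 (exact permutation p = 0.0185, adjusted p = 0.300) and rho = 0.71 (exact permutation p = 0.0576), with r = 0.81 without 2 libraries. Psmb10 and Erap1 had r = -0.77 (exact permutation p = 0.0250, adjusted p = 0.300) and rho = -0.76 (exact permutation p = 0.0368). For this last pair r was -0.68 without 2 libraries and -0.39 with equal library totals. The heavy chain genes H2-K1 and H2-D1 had r = 0.69 (exact permutation p = 0.0547, adjusted p = 0.394) and the highest rank correlation of the 36 pairs, rho = 0.93 (exact permutation p = 0.00223, adjusted p = 0.0804), with r = 0.67 without 2 libraries. The light chain gene B2m had r = 0.51 with the heavy chain gene H2-K1 (exact permutation p = 0.199, rho = 0.43) and r = -0.01 with H2-D1 (exact permutation p = 0.980, rho = 0.12). With the genotype means removed, r was 0.76 for Tap1 and Tap2 and 0.74 for H2-D1 and Tap1.

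**Figure D5:**
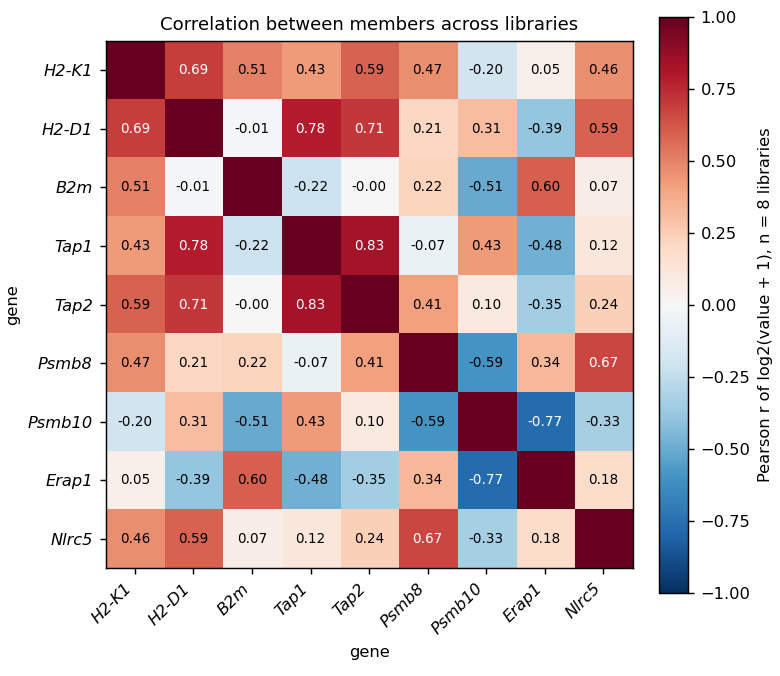
Pearson r of log2(normalized count + 1) over 8 libraries for each pair of the 9 tested members (genes on both axes, colour and number give r). Tap1 with Tap2 (0.83) and H2-D1 with Tap1 (0.78) are highest, Psmb10 with Erap1 (-0.77) is lowest, and no pair passes adjustment over 36.

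Several libraries held many of the extremes. Wild-type replicate 4 had the lowest value of all 8 libraries in 4 of the 10 members, Daxx-deleted replicate 3 the highest in 5 and Daxx-deleted replicate 2 the highest in 4. The genes most like the mean standardized level of the 9 members, picked from all other tested genes for the highest Pearson r over the 8 libraries and given without a test, were Hip1 (0.94), Duox2 (0.93), Sys1 (0.91), Tor3a (0.91) and Abhd11 (0.91). Of these, Hip1, a clathrin adaptor gene, averaged 48.8 ± 6.64 for wild-type and 59.7 ± 9.77 for Daxx-deleted mice, and the oxidase gene Duox2 had 10.5 ± 3.86 and 17.3 ± 5.89.

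The rest of the pathway was read from lists of the other heavy chains, the loading complex, the proteasome, the peptidases and the factors that act on class I promoters. None of their tested genes was called in either direction by limma. Of 21 other class I and class I-like heavy chain genes 7 were tested, 6 above 0 and 1 below, with a median log2 fold change of 0.35. Among them H2-T23, the mouse counterpart of HLA-E, had 16.4 ± 4.83 and 24.03 ± 5.71, Mr1, which presents vitamin metabolites, had 11.4 ± 4.01 and 19.3 ± 9.92, and H2-Q2 had 26.07 ± 6.14 and 33.9 ± 10.5. Fcgrt, the neonatal Fc receptor, had 55.9 ± 3.90 and 44.8 ± 9.13.

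Of 8 genes of the peptide loading complex and of class I folding, 3 were above 0 and 5 below. Tapbp, the tapasin gene, which bridges the transporter to the heavy chain and starts 308 bases after Daxx, had 147.2, 157.8, 160.7 and 148.7 in wild-type replicates 1 to 4 and 181.7, 180.8, 220.8 and 220.5 in Daxx-deleted replicates 1 to 4. The genotypes did not overlap, as for 1.87% of tested genes, and the limma adjusted p was 0.9997. The disulfide isomerase gene Pdia3 had 732.6 ± 186.7 and 783.3 ± 115.6, and calnexin (Canx) had 1506 ± 267.6 and 1453 ± 131.3.

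Of 10 tested genes of constitutive subunits, activators and assembly of the proteasome, 5 were above 0 and 5 below. Pomp, the assembly factor, had 58.5 ± 7.81 and 68.6 ± 6.19, and Psme1, a subunit of the interferon-induced activator, had 32.2 ± 5.81 and 38.9 ± 8.22. Of 9 tested peptidase genes 2 were above 0 and 7 below, with Npepps at 119.9 ± 12.01 and 142.8 ± 25.8. Of 15 transcription factor genes 9 were above 0 and 6 below, with a median of 0.02. Rfx5, which binds the X element beside X2, had 46.06 ± 3.57 and 38.98 ± 4.73. Of 9 tested interferon receptor and signalling genes 2 were above 0 and 7 below, with Ifnar2 at 28.8 ± 8.59 and 39.6 ± 13.1 and Ifngr1 at 63.3 ± 8.07 and 52.6 ± 12.4.

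Interferon targets outside antigen presentation were not called either. Of 26 targets of type I interferon only 14 were listed, without Isg15, Ifit1 and Mx1 among others. Of the 10 tested, 6 were above 0, with a median of 0.11. Ifi27 averaged 344.8 ± 90.9 for wild-type and 496.2 ± 108.2 for Daxx-deleted mice (limma unadjusted p = 0.00831, adjusted p = 0.9997). Of 19 targets of interferon gamma 11 were listed, without Cxcl9 and Cxcl10 among others. Of the 8 tested, 6 were above 0, with a median of 0.35. Of these the transcription factor gene Irf8 had 9.22 ± 7.62 and 15.98 ± 6.25, and the guanylate-binding protein gene Gbp4 had 9.99 ± 4.47 and 16.4 ± 7.32. Both had wild-type means under 10, so they passed the filter only through their Daxx-deleted values. Such an entry favours genes higher in that group. Both are in the count and median above, where their direction is no support for a difference.

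Immune and vessel markers give the context of cells that carry much class I. Class II presentation genes, of professional antigen-presenting cells, summed over 8 listed of 12 genes, covered 241.7 to 425.2 normalized counts among wild-type and 184.8 to 649.8 among Daxx-deleted libraries. Of its 6 tested genes 6 were above 0, with a median log2 fold change of 0.20, beside 7 of 9 and 0.19 for the members. Leukocyte and myeloid markers, 13 of 16 listed, summed to 465.7 to 726.1 and 383.2 to 892.2, with 5 tested genes above 0 and 6 below and a median of -0.04. Of these Ptprc, the pan-leukocyte gene, had 21.6 ± 12.4 and 27.1 ± 16.2, and the macrophage gene Cd163 had 32.7 ± 6.30 and 26.3 ± 13.0. Both sums were highest in Daxx-deleted replicate 2 and lowest in Daxx-deleted replicate 4. B2m, Erap1, Psmb9 and Nlrc5 were also highest in Daxx-deleted replicate 2, and Psmb8 and Erap1 were lowest in replicate 4. H2-D1, Tap2, Psmb9 and Nlrc5 were lowest in wild-type replicate 4, which had the lowest wild-type value of both sums (241.7 and 465.7). No correlation of the members with these sums was computed. H2-K1, H2-D1, Tap1, Tap2 and Psmb8 were highest in Daxx-deleted replicate 3. In Daxx-deleted replicate 4, H2-K1 (467.2), H2-D1 (484.0) and Tap1 (39.9) exceeded their wild-type means of 407.5, 405.1 and 24.6. B2m, Tap2, Psmb9 and Psmb10 also exceeded theirs in that library, and Nlrc5 did not. Of the T and NK cell list, Cd3e among them, 0 of 16 genes had a value to analyse here, and of the B cell list 1 of 8 (Jchain, without Cd79a). Endothelial markers, 10 of 10 listed, summed to 679.9 to 888.2 and 658.1 to 909.2, with 5 tested genes above 0 and 4 below and Pecam1 at 152.3 ± 12.5 and 145.9 ± 25.9. The part of these cells in the values of the class I genes was not tested.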

How the data were processed

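Strand-specific total RNA libraries of whole pancreas were sequenced, 1 per mouse, per the labels' protocols. The authors deposited 1 table of a signal, read counts divided by a size factor per library. The tools were STAR 2.6.0b and DESeq2, and the build GRCm38, per the submitters' processing notes. Dividing each library by the value of 1 read recovered whole reads (100% of values, tolerance 0.001). All genes in the table reached 5 reads in 4 or more libraries. GENCODE M21 (GRCm38), the source of coordinates, holds 11781 of the IDs when versions are ignored.

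Genes with a mean of at least 10 over the 8 libraries (10468) were tested by limma 3.58.1 (R 4.3.3) with trend on log2(value + 1), with genotype as the only term, two-sided, with Benjamini-Hochberg adjustment over all tested genes and a threshold of 0.05. Fold changes on this scale understate changes of low genes. The test was checked on simulated data. Single genes and ratios were tested by exact two-sided permutation over 70 relabellings, whose smallest p is 0.0286, and correlations by exact permutation of pairings. Alternatives were edgeR 4.0.16 and DESeq2 1.42.0 on recovered reads, other scalings, filters and pseudocounts, robust moderation, and each library left out. No label says which animals share a litter, cage or batch.

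The members and lists were chosen with earlier results of these data known. All members are named, with Daxx, the constitutive counterparts, defining cell markers, the 5 genes most like the members and up to 4 genes per list with the smallest unadjusted p, of which the text gives a part. Ctrl was chosen after its values were seen. Promoter sequences are those of RefSeq (GRCm38.p6), and shared windows were counted in GENCODE M21 transcripts.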

Additional observations from a re-analysis of the deposited data

Results flagged for a closer look

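Dixon's test at the 95% level was run on the 4 values of each member in each genotype. It picked out 1 value among 20 groups, and chance gives about 1 in 20. H2-D1 in Daxx-deleted replicate 1 stood at 372.7 normalized counts, with the other 3 Daxx-deleted libraries between 480.7 and 494.7.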

How the results depend on the processing

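The count of genes called over the whole table was 0, and 1 with equal library totals, with robust moderation and with DESeq2, in each case Bglap3, which is no member. edgeR called 0, with 299 genes at an unadjusted p under 0.05, against 302 in limma and 219 in DESeq2. Leaving out single libraries gave 0 to 1 called genes (1 without Daxx-deleted replicate 2, again Bglap3), and 248 to 468 genes at an unadjusted p under 0.05 (468 without wild-type replicate 2).

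Of 150 recomputed log2 fold changes of members 140 kept their direction, 10 turned and 0 passed the threshold, with a smallest adjusted p of 0.964. B2m ran from -0.17 to 0.33 with single libraries left out. Erap1 ran from -0.17 to 0.12 with single libraries left out, and was 0.11 with equal library totals, 0.017 in edgeR and 0.012 in DESeq2. With equal totals the median over all genes was 0.11, and 7 of 9 tested members lay above that median, the same number as under the deposited scaling. With single libraries left out, the ratio of Psmb8 to Psmb5 ran from -0.0033 to 0.75 (log2 difference), that of Psmb10 to Psmb7 from -0.25 to 0.033 and that of H2-K1 to H2-D1 from -0.17 to 0.040. The log2 difference of the ratio of Psmb9 to Psmb6 was 1.147, and 0.46 with a pseudocount of 8.

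For Psmb9, scalings chosen after seeing the data left the genotypes apart with TMM and with equal library totals (exact permutation p = 0.0286 in both). Psmb9 rests on 1 to 11 reads per library, so a few reads decide the order. Without Daxx-deleted replicate 3, Psmb8 was below the filter. No paired analysis was possible because the labels give no replicate numbers and no pairing of animals.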
